A study of Danio rerio with 27 samples.

Results

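Transcript levels of 10 actin turnover genes are given for cells sorted as metaphocyte progenitors from adult zebrafish mutant for spic and from their siblings. Markers of other cell types differed between these groups, as given below, so mutant and sibling libraries may not hold the same cell type. The genes are tmsb4x, tmsb1, pfn1, pfn2, cap1, coro1a, lcp1, cfl1, cfl1l and capza1b. They were chosen by symbol, with earlier results of these data known. Each had 1 row among the 32520 genes of the deposited table, and all 10 were among the 13465 genes with at least 1 TPM (a length-scaled share of the library's transcripts) in at least 5 libraries. The 27 libraries held 30 sorted cells each and formed 4 groups, with 7 libraries of spic mutant epidermis, 7 of sibling epidermis, 8 of spic mutant gill and 5 of sibling gill. Fish of every group carried the same Tg(spic:EGFP; mpeg1:DsRedx) background, and cells positive for EGFP and negative for DsRedx were taken. The gene that drives the sorting reporter is therefore also the mutated gene. The labels give neither the mutant allele nor the siblings' full genotype, and do not say if the replicates were separate fish. The p-values therefore measure only the spread between samples, which may be technical.

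Actin filaments grow from a pool of monomers, and the balance between monomer, filament, network and bundle sets how a cell protrudes and moves. Thymosins, profilins and cyclase-associated protein bind monomers, coronins and plastins bind filaments, cofilins sever them and capping protein closes their fast-growing ends. Coronin 1A and L-plastin are the coronin and the plastin of leukocytes, and Spi-C, the product of spic, is an Ets factor that in mice directs the red pulp macrophage programme. These roles are known mainly from mammals.

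The targeted gene followed the labels. Spic stood between 7.37 and 125 TPM in mutant epidermis (median 32.6) and between 561 and 760 TPM in sibling epidermis (median 621). In gill it stood between 2.92 and 53.3 TPM in mutants (median 12.6), against 140, 244, 263, 317 and 500 TPM in the 5 sibling libraries. Both comparisons gave the smallest p their exact two-sided permutation tests allow, 0.000583 in epidermis and 0.000777 in gill. TPM keeps no depth, so total reads are unknown. Genes detected at 1 TPM or above numbered 6469 to 8531 in mutant epidermis, 7688 to 9097 in sibling epidermis, 6755 to 10633 in mutant gill and 8407 to 10655 in sibling gill.

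Marker sums of some other cell types moved with genotype. The summed level of 12 neuroendocrine and sensory markers was 600 to 8156 TPM in mutant epidermis and 17.1 to 235 TPM in sibling epidermis, and 2543 to 6582 TPM in mutant gill against 27.1 to 865 TPM in sibling gill. Sibling gill 4 set that low end, and the other sibling gill libraries held 535, 668, 669 and 865 TPM. Macrophage markers, of which 12 of 13 listed genes had a row, summed to 3.26 to 10.6 TPM in mutant epidermis and 539 to 927 TPM in sibling epidermis, and to 0.175 to 229 TPM in mutant gill against 320 to 895 TPM in sibling gill. In siblings that sum came mainly from mpeg1.1 and spi1a, while csf1ra, c1qa, c1qb and havcr1 stayed under 1 TPM in every library of every group. The mutant gill library at 229 TPM had a different make-up, with c1qc at 106 TPM and spi1b at 74.0 TPM, both 0 in every sibling library. T and NK cell markers, with 8 of 10 genes present, summed to 0.254 to 17.9 TPM in mutant epidermis against 17.1 to 90.6 TPM in sibling epidermis, and to 0 to 159 TPM in mutant gill against 8.87 to 110 TPM in sibling gill. These sums overlapped in both tissues, and in siblings they came mainly from cd28, with a mean of 43.8 TPM in epidermis and 45.3 TPM in gill. Mpeg1.1 averaged 1.29 TPM in mutant epidermis and 210 TPM in sibling epidermis, and 1.71 TPM in mutant gill and 103 TPM in sibling gill, although cells without the mpeg1 reporter had been sorted. The 10 superficial keratinocyte markers summed to 497 to 1400 TPM in mutant gill and 126 to 354 TPM in sibling gill. Their sums overlapped in epidermis, with medians of 3329 TPM in mutants and 1310 TPM in siblings. There the means of krt5 (2588 and 282 TPM), krt4 (1688 and 681 TPM) and ppl (213 and 9.13 TPM) were higher in mutants. Those of anxa1a (3.92 and 253 TPM), evpla, agr1 and krt92 were lower in mutant epidermis. The gill difference came mainly from krt4 (means of 459 TPM in mutants and 35.9 TPM in siblings) and krt5 (323 and 122 TPM). Anxa1a, evpla, agr1 and krt17 had lower means in mutant gill than in sibling gill. For the remaining 9 marker lists the sums of mutants and siblings overlapped in both tissues, which does not make their levels equal. Ionocyte markers summed to 282 to 1474 TPM (median 821) in mutant epidermis and 171 to 320 TPM (median 226) in sibling epidermis. There atp1a1a.1 had means of 718 TPM in mutants and 168 TPM in siblings, while atp6v1aa was lower in mutants (29.5 and 67.9 TPM). In gill the ionocyte sum was 327 to 7328 TPM (median 453) in mutants and 237 to 707 TPM (median 410) in siblings. The part of these differences in the results that follow was not tested, and in bulk libraries fewer cells of a type and less RNA per cell cannot be told apart.

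In epidermis, 6 of the 10 genes fell in mutants, namely tmsb4x, tmsb1, pfn1, coro1a, lcp1 and capza1b, and none rose. Among all tested genes 12.8% passed the threshold there in either direction, 8.69% lower and 4.13% higher (limma on log2(TPM + 1), Benjamini-Hochberg adjusted p below 0.05). The same 6 genes had every mutant library below every sibling library, which held for 3.6% of all genes in that direction. In gill, tmsb4x, pfn1, coro1a and lcp1 fell, pfn2 rose and 5 genes did not pass, against a background of 6.21% of all genes, 3.87% lower and 2.34% higher. Mutant gill libraries lay entirely below sibling gill libraries for tmsb4x, pfn1, lcp1 and cap1, as they did for 1.73% of all genes. The median difference over the 10 genes was -2.42 in epidermis and -1.59 in gill on the log2 scale, beside -0.27 and -0.03 over all tested genes. Because the 10 genes were chosen with earlier results of these data known, their excess over all genes is no independent evidence.

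**Figure D1:**
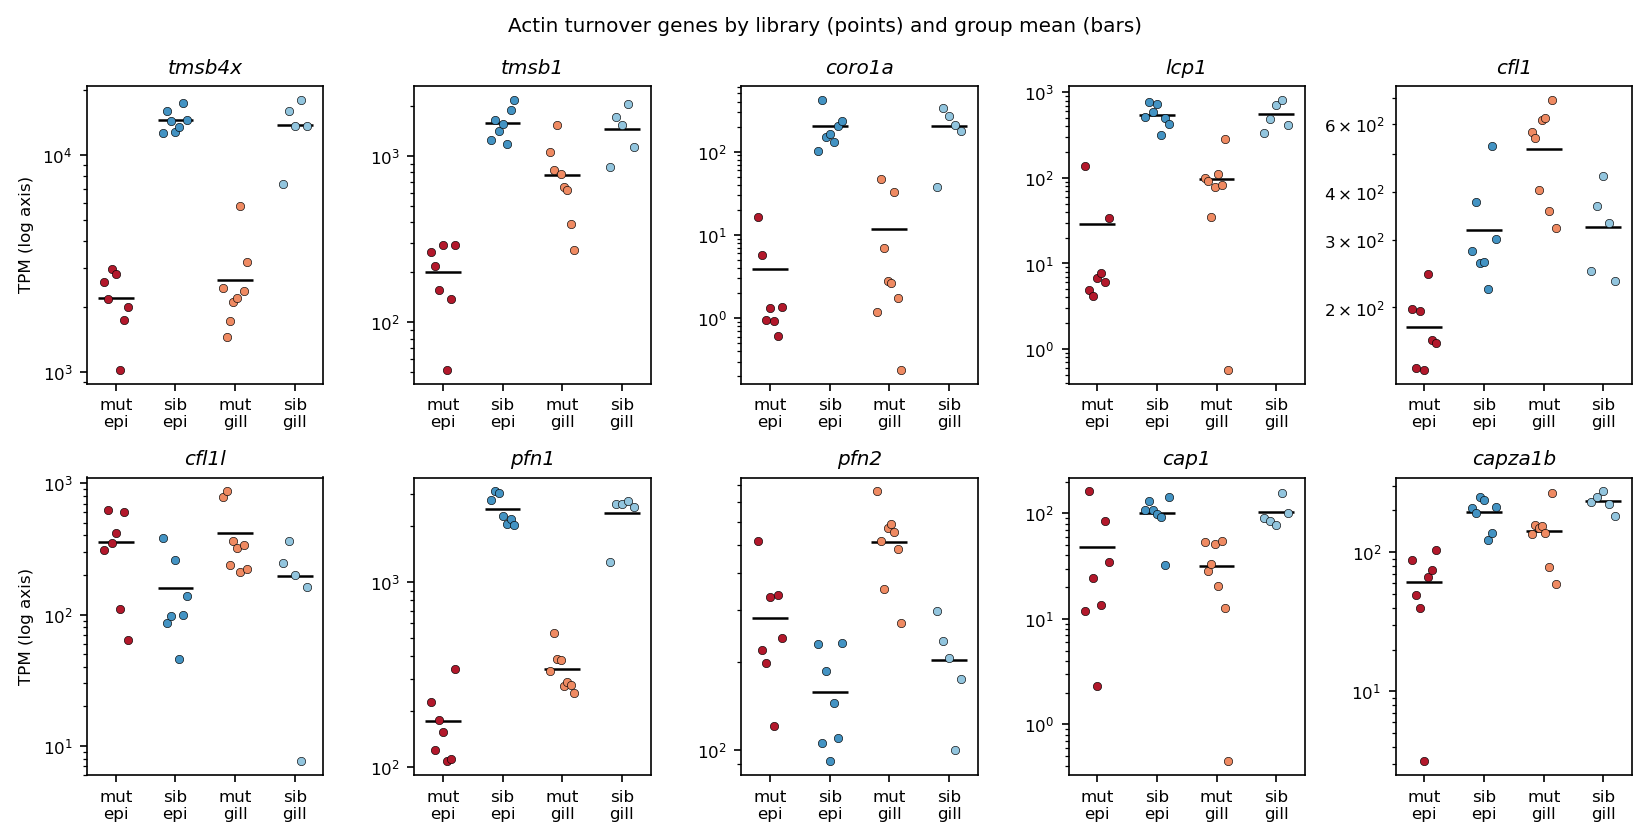
TPM of each of the 10 genes on a log axis, with 1 point per library and the group mean as a bar, for mutant (mut) and sibling (sib) epidermis (epi) and gill. The mutant points lie below all sibling points of the same tissue for tmsb4x, lcp1 and pfn1 in both tissues, while pfn2 and cfl1l have higher mutant means in both.

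The most abundant of the 10 was tmsb4x (ENSDARG00000077777), which encodes a beta-thymosin that holds actin monomers in reserve. Its level ran from 1018 to 2982 TPM in mutant epidermis (median 2156), against 12600 to 17373 TPM in sibling epidermis (median 14435). Mutant gill ran from 1445 to 5831 TPM (median 2280), and the 5 sibling gill libraries held 7347, 13659, 13700, 16055 and 18062 TPM. No mutant library reached the lowest sibling library of its tissue, and the closest was 1 mutant gill library at 5831 TPM. Group means were 2187 ± 684 TPM in mutant epidermis and 14458 ± 1735 TPM in sibling epidermis (SD, n = 7 each), a log2 difference of -2.79 (SE 0.24, limma adjusted p = 2.33e-10). They were 2662 ± 1384 TPM in mutant gill (SD, n = 8) and 13765 ± 4028 TPM in sibling gill (SD, n = 5), a log2 difference of -2.44 (SE 0.25, limma adjusted p = 3.06e-08). By mean TPM the gene ranked number 28 in mutant epidermis and 7 in sibling epidermis, and 32 in mutant gill and 5 in sibling gill, so it was still among the abundant transcripts of mutant cells.

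The related beta-thymosin gene tmsb1 (ENSDARG00000104181) fell clearly in epidermis and was less separated in gill. It held 51.7 to 294 TPM in mutant epidermis (median 219) and 1186 to 2196 TPM in sibling epidermis (median 1555). In mutant gill it held 272 to 1551 TPM (median 719), and in sibling gill 859, 1140, 1543, 1729 and 2071 TPM. The epidermal groups were far apart, whereas 2 of the 8 mutant gill libraries lay within the range of sibling gill. The gene fell in epidermis, with 202 ± 91.1 TPM in mutants and 1594 ± 360 TPM in siblings (SD, n = 7 each) and a log2 difference of -3.13 (SE 0.37, limma adjusted p = 1.22e-07). In gill the means were 771 ± 400 TPM in mutants (n = 8) and 1468 ± 479 TPM in siblings (SD, n = 5), and the log2 difference of -1.04 (95% CI -1.83 to -0.25) did not pass (limma adjusted p = 0.117).

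Profilin 1, the profilin of most cells, recharges monomers with ATP and hands them to growing filament ends. Its gene pfn1 (ENSDARG00000088091) ran from 107 to 340 TPM in mutant epidermis (median 154) and from 2038 to 3113 TPM in sibling epidermis (median 2292). Mutant gill libraries ran from 251 to 529 TPM (median 310), and sibling gill libraries held 1278, 2561, 2651, 2664 and 2749 TPM. The groups were wide apart in both tissues, even at the low sibling gill library of 1278 TPM. The log2 difference was -3.91 (SE 0.29, limma adjusted p = 1.30e-11) in epidermis, where means were 177 ± 83.6 TPM in mutants and 2501 ± 465 TPM in siblings (SD, n = 7 each). In gill it was -2.80 (SE 0.31, limma adjusted p = 8.65e-08), with 339 ± 90.8 TPM in mutants (n = 8) and 2381 ± 620 TPM in siblings (SD, n = 5).

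The second profilin, pfn2 (ENSDARG00000003952), has a mammalian counterpart that is most abundant in nervous tissue. The gene name table gives its identifier the symbol pfn2b. It stood at 121 to 515 TPM in mutant epidermis (median 242) and at 91.6 to 232 TPM in sibling epidermis (median 145). Mutant gill held 270 to 762 TPM (median 533), against 99.9, 174, 206, 235 and 297 TPM in sibling gill. The mutant libraries reached higher but overlapped siblings, with 4 of 7 above the highest sibling in epidermis and 7 of 8 in gill. The gene rose in gill, with means of 512 ± 150 TPM in mutants (n = 8) and 202 ± 73.0 TPM in siblings (SD, n = 5) and a log2 difference of 1.36 (SE 0.41, limma adjusted p = 0.0370). That call ended without any of 10 of the 13 gill libraries, all but sibling gill 1 and mutant gill 3 and 8 (highest limma adjusted p = 0.154), under quantile normalization (0.0708) and with the replicate block (0.0793). In epidermis the log2 difference of 0.79 (95% CI 0.02 to 1.57) did not pass (limma adjusted p = 0.188).

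Cyclase-associated protein 1 strips cofilin from spent monomers and returns them to the pool. Its gene cap1 (ENSDARG00000016350) was, relative to its mean, the most uneven of the monomer binders in mutants of both tissues, but not in siblings. It ran from 2.29 to 163 TPM in mutant epidermis (median 24.6) and from 32.4 to 142 TPM in sibling epidermis (median 107). Mutant gill ran from 0.445 to 55.3 TPM (median 30.7), below all sibling gill libraries at 78.0, 85.5, 90.4, 102 and 155 TPM. The log2 differences of -1.88 (95% CI -3.43 to -0.33) in epidermis and -2.15 (95% CI -3.80 to -0.49) in gill did not pass (limma adjusted p = 0.106 and 0.121). The gene did pass in gill under quantile normalization (limma log2 difference -2.42, adjusted p = 0.0239) and in epidermis without the 3 libraries with the fewest detected genes (-1.81, adjusted p = 0.0403). The mean of mutant epidermis was 47.7 TPM with all 7 libraries and 28.4 TPM without the library at 163 TPM.

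Of the filament binders, coronin 1A (coro1a, ENSDARG00000054610) sits along actin networks and works with cofilin and the Arp2/3 complex in their renewal. It was nearly missing from most mutant libraries, at 0.607 to 16.6 TPM in mutant epidermis (median 1.34) and 102 to 423 TPM in sibling epidermis (median 162). Mutant gill had 0.238 to 46.4 TPM (median 2.75), while sibling gill had 38.0, 177, 208, 265 and 339 TPM. In gill only the highest mutant library, at 46.4 TPM, overlapped siblings, through the sibling library at 38.0 TPM. The log2 difference was -5.81 (SE 0.78, limma adjusted p = 1.63e-06) in epidermis and -4.84 (SE 0.84, limma adjusted p = 0.000193) in gill. Single libraries set the mutant means, which were 3.93 TPM in epidermis and 1.81 TPM without mutant epidermis 1, and 11.8 TPM in gill and 6.90 TPM without mutant gill 2.

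L-plastin (lcp1, ENSDARG00000023188) ties filaments into bundles. It stood at 4.12 to 139 TPM in mutant epidermis (median 6.73), against 318 to 763 TPM in sibling epidermis (median 518). In mutant gill it stood at 0.568 to 288 TPM (median 87.5), against 336, 411, 490, 707 and 826 TPM in sibling gill. All mutant libraries lay below all sibling libraries in both tissues, and 7 of the 8 mutant gill libraries lay above the median of mutant epidermis. The log2 difference was -5.33 (SE 0.78, limma adjusted p = 5.95e-06) in epidermis and -3.20 (SE 0.83, limma adjusted p = 0.0139) in gill. Without sibling gill 4 the gill difference was -2.46 and did not pass (limma adjusted p = 0.0515), and without mutant epidermis 1 the mean of mutant epidermis was 10.6 TPM in place of 28.9 TPM.

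Cofilins cut old filaments and speed the release of their monomers. The gene cfl1 (ENSDARG00000021124) held 138 to 244 TPM in mutant epidermis (median 165) and 223 to 527 TPM in sibling epidermis (median 280). In mutant gill it held 322 to 695 TPM (median 562), and in sibling gill 234, 249, 332, 366 and 439 TPM. Mutant libraries were thus toward the low side in epidermis, with 6 of 7 below the lowest sibling, and toward the high side in gill, with 5 of 8 above the highest sibling. Neither difference passed, at -0.81 (95% CI -1.46 to -0.16, limma adjusted p = 0.0930) in epidermis, which became 0.37 when libraries were centred at their medians, and 0.66 (95% CI -0.03 to 1.36, limma adjusted p = 0.291) in gill. The epidermal difference did pass with no filter on genes (limma adjusted p = 0.0392), and the gill difference with libraries centred at their medians (1.52, limma adjusted p = 0.0364). Its relative cfl1l (ENSDARG00000012972) spread widely within every group, at 64.2 to 622 TPM in mutant epidermis (median 349) and 45.7 to 380 TPM in sibling epidermis (median 98.3). It stood at 210 to 872 TPM in mutant gill (median 329), against 7.60, 162, 201, 248 and 361 TPM in sibling gill. The groups overlapped in both tissues, and the log2 differences of 1.11 (95% CI -0.20 to 2.42) and 1.59 (95% CI 0.20 to 2.99) did not pass (limma adjusted p = 0.295 and 0.186). Leaving out 1 library moved the gill difference of cfl1l between 0.64 and 1.99 (highest limma adjusted p = 0.648).

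Capping protein stops filaments from growing at their barbed ends, and capza1b (ENSDARG00000056090) encodes an alpha subunit of it. Its level was 3.13 to 104 TPM in mutant epidermis (median 66.5) and 123 to 250 TPM in sibling epidermis (median 209). Mutant gill held 59.0 to 265 TPM (median 143), and sibling gill held 183, 223, 229, 250 and 276 TPM. The epidermal groups were apart, and in gill 7 of 8 mutant libraries lay below the lowest sibling. The gene fell in epidermis, with 60.9 ± 33.6 TPM in mutants and 194 ± 47.6 TPM in siblings (SD, n = 7 each) and a log2 difference of -2.06 (SE 0.54, limma adjusted p = 0.00777). With libraries centred at their medians that difference was -0.87 and did not pass (limma adjusted p = 0.295), nor did it with detected genes as a covariate (-1.70, adjusted p = 0.0640). The gill difference of -0.82 (95% CI -1.98 to 0.34) did not pass (limma adjusted p = 0.472).

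**Figure D2:**
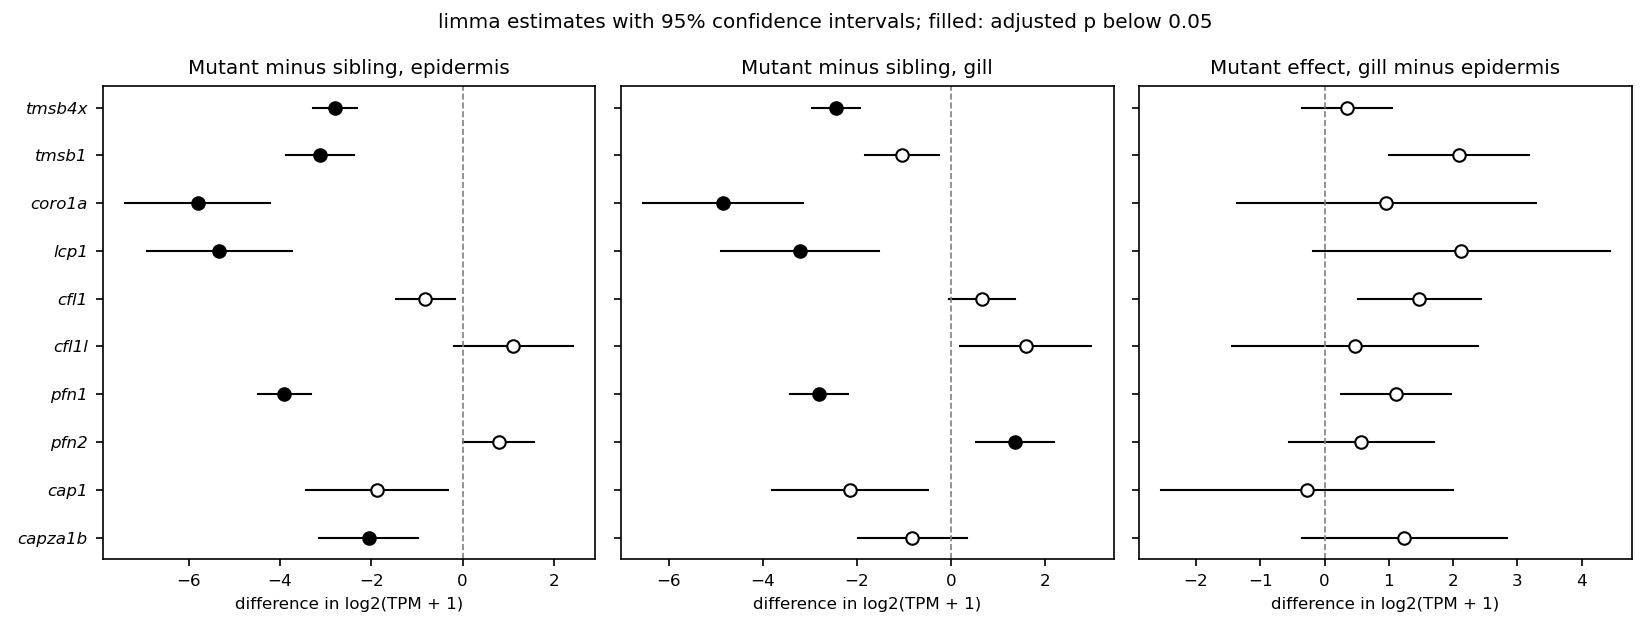
limma estimates of the log2(TPM + 1) difference for the 10 genes, mutant minus sibling in epidermis, the same in gill, and the gill difference minus the epidermal one, with 95% confidence intervals. Filled points passed the adjusted threshold, 6 in epidermis, 5 in gill and 0 for the difference between tissues.

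The scale of the libraries bears on the smaller of these differences. The median log2(TPM + 1) of a library averaged 1.27 in mutant epidermis and 2.45 in sibling epidermis, and 1.97 in mutant gill and 2.82 in sibling gill. Centring the libraries at these medians put the median difference of all tested genes at 0.91 in epidermis and 0.83 in gill, and the share of calls that were higher in mutants at 83.3% in place of 32.2% in epidermis and 82.8% in place of 37.7% in gill. Under that centring tmsb4x (-1.61), tmsb1 (-1.94), pfn1 (-2.73), coro1a (-4.62) and lcp1 (-4.14) stayed called lower in epidermis, and tmsb4x (-1.58), pfn1 (-1.94), coro1a (-3.99) and lcp1 (-2.35) in gill. Calls of higher levels then numbered 2 in epidermis, cfl1l and pfn2, and 3 in gill, where cfl1 joined them, beside 2034 and 1079 of the 13465 tested genes. Together the 10 genes made up 0.352 ± 0.0898% of all TPM in mutant epidermis and 2.02 ± 0.212% in sibling epidermis (SD, n = 7 each), and 0.550 ± 0.116% in mutant gill (n = 8) and 1.94 ± 0.525% in sibling gill (SD, n = 5). Tmsb4x alone was 53.3 to 72.2% of that sum in mutant epidermis and 68.2 to 75.8% in sibling epidermis. In gill it was 28.6 to 71.9% of the sum in mutants and 67.0 to 73.0% in siblings.

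Ratios within a library do not depend on its scale, and 3 pairs of related genes were compared in both tissues, 6 tests in all. The clearest was pfn1 over pfn2. Pfn1 was the more abundant profilin in 1 of 7 mutant epidermis libraries and in all 7 of sibling epidermis, and in 2 of 8 mutant gill libraries and in all 5 of sibling gill. The mean log2 ratio was -0.65 ± 0.74 in mutant epidermis and 4.05 ± 0.60 in sibling epidermis (SD, n = 7 each), a difference of -4.70 (exact permutation p = 0.000583, adjusted p = 0.00233 over the 6 tests). In gill it was -0.57 ± 0.52 in mutants (n = 8) and 3.58 ± 0.96 in siblings (SD, n = 5), a difference of -4.16 (exact permutation p = 0.000777, adjusted p = 0.00233). As a ratio of mean TPM, pfn1 stood at 0.630 times pfn2 in mutant epidermis and 15.9 times in sibling epidermis, and at 0.661 times in mutant gill and 11.8 times in sibling gill.

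The thymosin ratio differed in gill. Tmsb4x exceeded tmsb1 in every library, with a log2 ratio of 3.54 ± 0.56 in mutant epidermis and 3.20 ± 0.26 in sibling epidermis (SD, n = 7 each), a difference of 0.34 that did not pass (exact permutation, adjusted p = 0.213). In gill the ratio was 1.83 ± 1.19 in mutants (n = 8) and 3.23 ± 0.20 in siblings (SD, n = 5), a difference of -1.40 (exact permutation p = 0.0319, adjusted p = 0.0478). Mutant gill libraries ran from 0.14 to 3.56 and sibling gill from 3.10 to 3.59, so that the mutants covered a range many times as wide. The gill call ended without any of 11 of the 13 libraries, all but mutant gill 6 and 8 (highest adjusted p = 0.0970, exact permutation). The cofilin ratio, cfl1 over cfl1l, was -0.66 ± 1.40 in mutant epidermis and 1.27 ± 1.12 in sibling epidermis (SD, n = 7 each), a difference of -1.93 (exact permutation p = 0.0181, adjusted p = 0.0361). That call ended without any of sibling epidermis 2, 5 and 6 and mutant epidermis 2, 4 and 6 (highest adjusted p = 0.0551, exact permutation). In gill the difference of -0.93 did not pass (exact permutation, adjusted p = 0.316) and was 0.041 without sibling gill 4, where cfl1l stood at 7.60 TPM. The sources used here do not say how reads that match both genes of a pair were assigned, so each paralogue's level is uncertain to that extent.

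**Figure D3:**
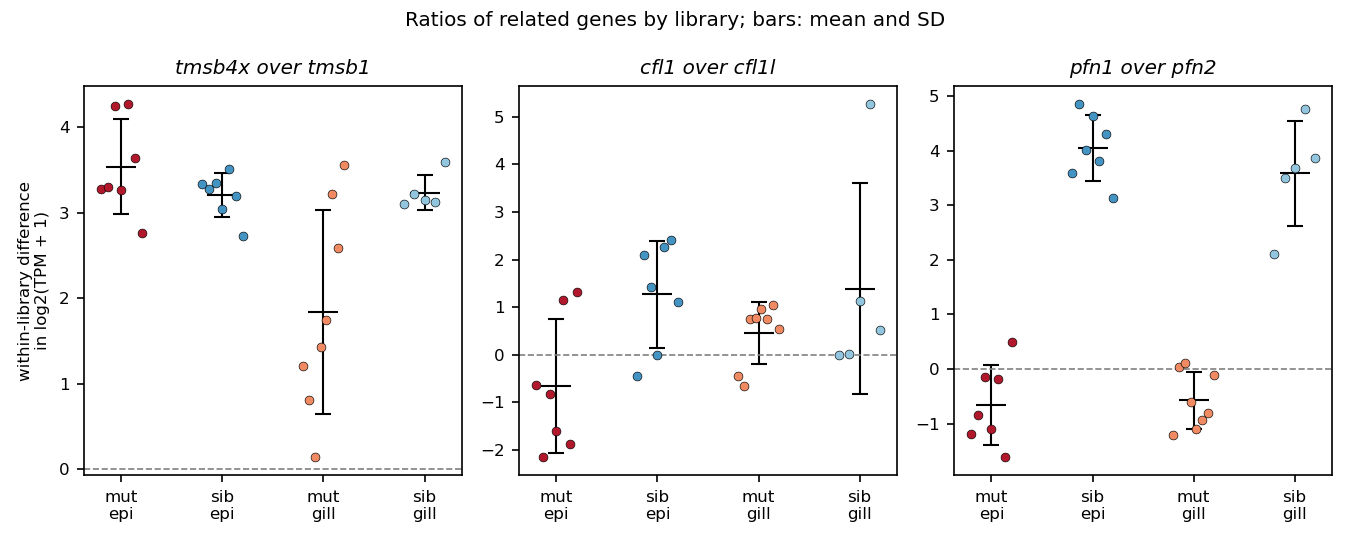
Within-library difference in log2(TPM + 1) between the genes of each pair, with 1 point per library and bars for mean and SD, in mutant (mut) and sibling (sib) epidermis (epi) and gill. For pfn1 over pfn2 the mutant libraries lie between -1.62 and 0.49 and every sibling library lies above them.

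The tissues were also compared within each genotype, siblings first. None of the 10 genes passed the adjusted threshold for sibling gill against sibling epidermis in limma, which 0.958% of all genes did. None had an unadjusted p under 0.05 either. The log2 differences lay between -0.15 for tmsb1 and 0.36 for pfn2. In mutants, tmsb1, cfl1 and pfn1 were higher in gill than in epidermis, where 3.4% of all genes were. The means were 771 ± 400 TPM in mutant gill (n = 8) and 202 ± 91.1 TPM in mutant epidermis (SD, n = 7) for tmsb1, a log2 difference of 1.93 (SE 0.35, limma adjusted p = 0.000995). All 8 mutant gill libraries exceeded all 7 of mutant epidermis for cfl1, with means of 517 ± 138 and 177 ± 38.1 TPM, a log2 difference of 1.52 (SE 0.31, limma adjusted p = 0.00307). Higher libraries without overlap were found for 0.891% of all genes in this comparison. For pfn1 the log2 difference was 1.01 (SE 0.28, limma adjusted p = 0.0306), a call that ended without any of mutant gill 2 and mutant epidermis 2, 5 and 6 (highest limma adjusted p = 0.0663). It also ended under quantile normalization (limma adjusted p = 0.118), with mutant libraries alone (0.249), with detected genes as a covariate (0.293) and without the 3 libraries with the fewest detected genes (0.0629). None of the 3 passed once libraries were centred at their medians, where pfn1 had an adjusted p of 0.720 in limma. Lcp1 did not pass between tissues of mutants, at 2.11 on the log2 scale (limma adjusted p = 0.106). It passed with a replicate block shared over tissues (2.85, limma adjusted p = 0.00458), without the 3 libraries with the fewest detected genes (2.46, adjusted p = 0.0211), and without mutant gill 8 or mutant epidermis 1 (lowest adjusted p = 0.00277).

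Whether the mutant effect itself differed between the tissues was tested directly. None of the 10 genes passed the adjusted threshold in limma, which 0.0594% of all genes did. Tmsb1, cfl1 and pfn1 had an unadjusted p under 0.05, a looser threshold for which no share of all genes is given. Tmsb1 came closest, with a gill difference 2.09 above the epidermal one on the log2 scale (SE 0.53, limma adjusted p = 0.104, and 0.0470 without mutant gill 8). The cfl1 effect differed by 1.48 (95% CI 0.53 to 2.43, limma adjusted p = 0.214) and the pfn1 effect by 1.11 (95% CI 0.26 to 1.96, limma adjusted p = 0.326). For tmsb4x the interval of the difference ran from -0.35 to 1.06 and for coro1a from -1.37 to 3.29.

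The other actin genes moved in both directions. Of 96 genes on lists of monomer binders, severing and debranching factors, cofilin regulators, other coronins, bundlers, cappers, elongation factors and actins, 77 had a row and 46 were tested. All these lists were chosen with earlier results of these data known. Pfn2b is on the list of monomer binders and counts there as without a row, since the table holds it as pfn2. In epidermis 5 rose and 13 fell, and in gill 5 rose and 5 fell, with median differences of -0.44 and -0.05 beside the -0.27 and -0.03 of all genes. Of all tested genes 4.13% rose and 8.69% fell in epidermis, and 2.34% rose and 3.87% fell in gill. With libraries centred at their medians these counts were 12 higher and 5 lower in epidermis and 7 higher and 1 lower in gill, beside 2034 higher and 408 lower in epidermis and 1079 higher and 224 lower in gill among the 13465 tested genes. With gill libraries alone 3 of the 46 rose and 3 fell in gill, beside 203 higher and 349 lower among the 13465 tested genes. The replicate block likewise gave 3 higher and 3 lower of the 46, beside 273 higher and 333 lower among all tested genes. None of the 46 passed for the difference between tissues in limma, which 0.0594% of all genes did.

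Genes of the gelsolin family did not all move the same way. Capga, a capping gelsolin relative, held 397 ± 214 TPM in mutant epidermis and 5.90 ± 8.72 TPM in sibling epidermis (SD, n = 7 each), and 832 ± 352 TPM in mutant gill against 31.4 ± 29.3 TPM in sibling gill. Without sibling epidermis 7 the mean of sibling epidermis was 2.64 TPM. Capga rose in both tissues (limma adjusted p = 2.58e-07 and 1.08e-05). Its paralogue capgb went the other way, with 1.27 ± 0.566 TPM in mutant epidermis and 155 ± 47.2 TPM in sibling epidermis, and 3.98 ± 4.31 TPM in mutant gill and 94.8 ± 59.2 TPM in sibling gill (limma log2 difference -6.09, adjusted p = 1.57e-07, and -4.14, adjusted p = 0.000488). Villin, vil1, which bundles microvillar filaments, rose in both tissues (limma log2 difference 5.93 and 3.57, adjusted p = 3.40e-07 and 0.00337), as did scinlb (1.49 and 1.83, limma adjusted p = 0.0201 and 0.0128). Gelsolin a, gsna, fell by 6.46 in epidermis and by 2.77 in gill on the log2 scale (limma adjusted p = 1.37e-07 and 0.0334), and the gill call ended under median centring and without any of the 5 sibling gill libraries or mutant gill 4, 7 and 8. The gill call of scinlb ended without sibling gill 4, and its epidermal call with detected genes as a covariate (limma adjusted p = 0.0531).

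Among bundlers, fascin, fscn1a, which packs filopodia, had 343 ± 229 TPM in mutant epidermis and 57.1 ± 38.8 TPM in sibling epidermis, and 324 ± 180 TPM in mutant gill and 33.0 ± 29.4 TPM in sibling gill (limma adjusted p = 0.00835 and 0.00203). Plastin 3, pls3, a plastin of many non-blood cells in mammals, rose in epidermis, where lcp1 fell, with 54.1 ± 45.3 TPM in mutants and 6.58 ± 7.46 TPM in siblings (limma log2 difference 3.26, adjusted p = 0.0201). That call ended without sibling epidermis 5 and with detected genes as a covariate (highest limma adjusted p = 0.0931). The coronin gene coro1cb was listed at 0 in every sibling gill library and at 0.129 to 57.2 TPM in mutant gill (limma adjusted p = 0.0314, a call that ended without any of the 5 sibling libraries or mutant gill 4, 6 and 7).

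The cytoplasmic actin gene actb2 fell in both tissues. It had 6892 ± 1343 TPM in mutant epidermis and 28843 ± 5917 TPM in sibling epidermis (SD, n = 7 each), a limma log2 difference of -2.06 (adjusted p = 1.41e-11), and 8753 ± 1681 TPM in mutant gill and 26683 ± 6893 TPM in sibling gill, a difference of -1.59 (limma adjusted p = 3.06e-08, and 0.106 with libraries centred at their medians). The elongation factors vaspa and fmnl1a fell in both tissues, vaspa by 3.24 in epidermis and by 3.02 in gill and fmnl1a by 2.99 and by 2.54 (highest limma adjusted p = 0.0198, for fmnl1a in gill, where the call ended without sibling gill 3 or 4). Both were near the floor in mutants, with means of 0.111 TPM in epidermis and 0.162 TPM in gill for vaspa (12.9 TPM in siblings of each tissue). For fmnl1a they were 0.597 and 0.591 TPM, against 10.7 and 9.57 TPM in siblings. Over the alternatives the epidermal difference ran from -5.68 to -1.03 for vaspa and from -4.81 to -0.95 for fmnl1a. Centring at the medians ended the calls of vaspa in gill and of fmnl1a in both tissues. The gill calls of scinlb, gsna, coro1cb and fmnl1a each ended with the replicate block and with gill libraries alone (highest limma adjusted p over all alternatives 0.166, for fmnl1a). The capping regulator carmil3 fell in epidermis by 3.04 (limma adjusted p = 0.000199), with means of 0.0478 TPM in mutants and 9.89 TPM in siblings. Its difference ran from -5.75 to -0.91 over the alternatives. In mutants, vill, actb1 and limk2 were higher in gill than in epidermis (limma log2 difference 4.36, 0.77 and 3.58), where 3.4% of all genes were. Of these, actb1 and limk2 did not pass with libraries centred at their medians or with mutant libraries alone. With detected genes as a covariate 0 of the 46 passed in that comparison in limma (adjusted p = 0.123 for vill), beside 214 of the 13465 tested genes, 140 of them higher.

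**Figure D4:**
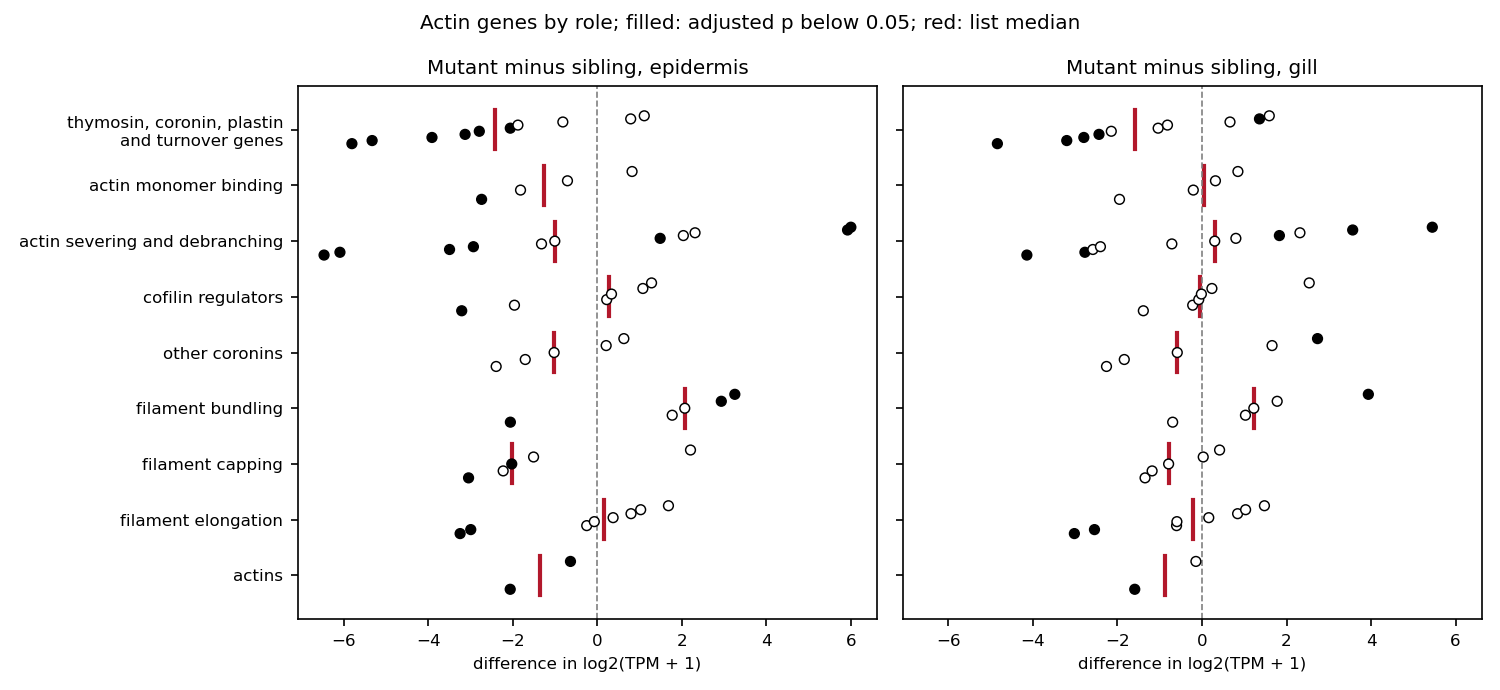
limma log2(TPM + 1) difference, mutant minus sibling, for tested actin genes grouped by role, in epidermis and gill, with the 10 genes of the report in the top row. Filled points passed the adjusted threshold and red bars are list medians, which for the 10 genes are -2.42 in epidermis and -1.59 in gill.

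The genes most like each of the 10 were sought among 6418 tested genes with a mean of at least 10 TPM, by Pearson correlation of log2(TPM + 1) over the 27 libraries. Genes listed by an Ensembl identifier or a clone-style name were left out, so the nearest is the nearest of the genes compared. These libraries share their group structure, so each r is given again after group means were removed. Tmsb4x was nearest to spi1a, an Ets-family factor of myeloid cells (r = 0.94, and 0.33 without group means), followed by dok2 and arhgap4a. Coro1a was nearest to ascc1 (0.94, and 0.67), followed by laptm5 and spi1a, and pfn1 to elovl5, a fatty acid elongase (0.96, and 0.46), followed by tnfaip8l2a and cd180. Tmsb1 was nearest to itm2bb (0.94, and 0.81), ahead of the chemokine receptor cxcr4b and the oxidase subunit cyba. For lcp1 the nearest was arpc4l, of the Arp2/3 complex (0.90, and 0.77), then mrtfab and epdl1.

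Cfl1 was nearest to cdh1, which encodes E-cadherin (0.79, and 0.27), then pstpip2 and selenot1b, and cfl1l to pdlim1 (0.77, and 0.77), then tox and atoh1a, a factor of sensory and secretory cells on the neuroendocrine and sensory marker list. Pfn2 was nearest to nudt9 (0.86, and 0.80), then igfbp5b and cyp27c1. Cap1 was nearest to the lysosomal protease lgmn (0.84, and 0.77), then mapkapk2a and cotl1, an actin-binding coactosin. Capza1b was nearest to spint2 (0.83, and 0.63), then anxa11b and capzb (0.82, and 0.63), the beta subunit of the same capping protein. Capzb averaged 144 TPM in mutant epidermis and 431 TPM in sibling epidermis, and 295 TPM in mutant gill and 487 TPM in sibling gill.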

How the data were processed

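Each library was made from 30 sorted cells by a Smart-seq2 protocol with 23 PCR cycles, per the labels' protocols. The authors deposited 1 table of TPM values, 1 column per library, with no replicates pooled. STAR, featureCounts and DESeq2 and the builds GRCz11 and danRer11 are named in the submitters' processing notes; versions, roles, annotation, strandedness and how ambiguous reads were counted are given in none of the sources used here. TPM keeps no depth, so no count test or counting interval was used.

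The 13465 of 32520 genes that reached 1 TPM in 5 or more libraries were tested with limma 3.58.1 in R 4.3.3 (lmFit, eBayes with trend) on log2(TPM + 1), which understates changes of low genes. All 27 libraries entered 1 fit with 4 group means and 23 residual degrees of freedom, two-sided, with Benjamini-Hochberg adjustment over all tested genes and a threshold of 0.05. The targeted gene and within-library ratios had exact two-sided permutation tests. The procedure was tested on simulated data. The 10 genes and all gene lists were chosen with earlier results of these data known, so they are no independent evidence. From the other actin lists, up to 6 genes per direction with the smallest p were named in each mutant contrast and up to 3 in others, and per gene the 3 with the highest correlation. After each gene's group mean was removed, what remained in same-numbered mutant and sibling libraries correlated at -0.0308 to 0.0739. The main fit did not take the numbers as pairs. These small values do not exclude pairs, since every epidermal mutant library correlated best with its own number. The numbers of calls with a replicate block, and the calls of named genes that it ended, are therefore given beside the main fit. Estimates for single genes are from the main fit unless another setting is named. Alternatives were other pseudocounts, filters and scalings, covariates, weights, a replicate block and leaving out libraries. The reference tables name another assembly, so no coordinates are given, and no sequence is printed. Figures were drawn with matplotlib 3.10.9.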

Additional observations from a re-analysis of the deposited data

Results flagged for a closer look

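Within the 40 sets formed by 10 genes in 4 groups, 8 had 1 library far from the others in TPM by Dixon's test at its 95% critical value. Chance sets that share at about 1 in 20 for normally distributed values. Whether the TPM values are so distributed was not tested, so the 8 have no firm background. Tmsb4x stood at 5831 TPM in mutant gill 6 (others 1445 to 3215), the mutant library with the highest macrophage marker sum, 229 TPM. That sum came mainly from c1qc and spi1b, which were 0 in every sibling library. Mutant epidermis 1 was high for coro1a at 16.6 TPM (others 0.607 to 5.66) and for lcp1 at 139 TPM (others 4.12 to 33.7), with a macrophage sum of 6.89 TPM. Coro1a also stood at 423 TPM in sibling epidermis 2 (others 102 to 234). Lcp1 at 288 TPM (others 0.568 to 112) and capza1b at 265 TPM (others 59.0 to 157) were both high in mutant gill 7, whose macrophage sum was 5.53 TPM. Pfn1 was high at 529 TPM in mutant gill 2 (others 251 to 381) and low at 1278 TPM in sibling gill 1 (others 2561 to 2749), the sibling gill library that was also lowest for tmsb4x, tmsb1, coro1a and lcp1. That library had the lowest macrophage sum of sibling gill, 320 TPM, and the highest neuroendocrine and sensory sum, 865 TPM, and their part in its values was not tested. Sibling gill 4 stood at the other end, with a macrophage sum of 895 TPM and a neuroendocrine and sensory sum of 27.1 TPM. The gill calls of lcp1 and pfn2 ended without sibling gill 4, and the part of its make-up in this was not tested.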

How the results depend on the processing

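Tmsb4x, pfn1 and coro1a in both tissues, and tmsb1 and lcp1 in epidermis, kept their direction and call under every alternative and every library left out. Cfl1 in epidermis became 0.37 and capza1b in gill 0.036 under median centring. In mutants, 0 of the 10 genes passed between tissues under median centring. For mutants against siblings, all 10 had an unadjusted exact permutation p below 0.05 in gill, with cfl1, cfl1l and pfn2 higher in mutants. In epidermis all but cfl1l did (exact permutation p = 0.0944). The share of all genes below that threshold was not computed, so these counts have no background. Leaving out 1 library gave 6 to 7 calls in epidermis, 3 (without sibling gill 4) to 5 in gill, 0 to 1 for the difference between tissues and 2 to 4 between tissues of mutants. It moved the tmsb4x over tmsb1 ratio in gill from -1.65 to -1.16, and cfl1 over cfl1l from -2.26 to -1.68 in epidermis (-1.44 without the 3 libraries with the fewest genes) and from -1.28 to 0.041 in gill. With the replicate block, limma called 6 and 4 of the 10 genes, losing pfn2 in gill (adjusted p = 0.0793), and 1749 and 606 of all genes, against 1726 and 836 without it. With sign flips over same-numbered pairs the ratio differences were -2.17 (tmsb4x over tmsb1, gill), -1.93 (cfl1 over cfl1l, epidermis), -4.70 and -4.13 (pfn1 over pfn2, epidermis and gill), and all 4 lost their call (adjusted exact p = 0.075 for each); 7 and 5 pairs cannot go below p of 0.0156 and 0.0625. With group means removed, every epidermal mutant library, but 2 of 5 in gill, correlated best with its own number. A block shared over tissues was added after seeing the data. Over all genes, gill calls (836) numbered 1303 under median centring, 552 from gill libraries alone and 520 without sibling gill 4. Calls between tissues of mutants (569) numbered 338 under median centring, 119 from mutant libraries alone, 214 with detected genes as a covariate, 360 with array weights and 358 with no filter, those of siblings (129) 72 to 245, and those of the difference between tissues (8) 1 to 26. The causes were not tested.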

Other observations

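Besides the genes named by rule, 7 other actin genes fell in epidermis, and they are named here because they complete that count. Coactosin (cotl1), which binds filaments, had 85.9 ± 44.1 TPM in mutant epidermis and 583 ± 115 TPM in sibling epidermis (SD, n = 7 each, limma log2 difference -2.93, adjusted p = 0.00421). The gelsolin gene gsnb differed by -3.49 (limma adjusted p = 0.00934), and twinfilin (twf1a), a monomer binder, by -2.74 (limma adjusted p = 0.0431). The cofilin kinase gene limk1a differed by -3.21 (limma adjusted p = 0.0288) and the crosslinker gene actn4 by -2.06 (limma adjusted p = 0.0137).

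The capping protein subunits moved alike in epidermis, where capzb had 144 ± 91.7 TPM in mutants and 431 ± 115 TPM in siblings (SD, n = 7 each) and differed by -2.02 (limma adjusted p = 0.00441), beside -2.06 for capza1b. The actin gene actb1 differed by only -0.63 (limma adjusted p = 0.0349), from 1255 to 2454 TPM in mutant epidermis and from 2018 to 3494 TPM in sibling epidermis, and that sign turned to 0.55 with libraries centred at their medians. None of these 7 passed under that centring (lowest limma adjusted p = 0.0558, for cotl1), while all but actb1 passed under quantile normalization.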
